A study of Mus musculus with 3 samples.

Results

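The lysosome is the acidic compartment in which cells break down proteins, glycans and lipids, and 39 genes for its enzymes, membrane proteins and proton pump were followed across 3 genotypes of cultured mouse dermal fibroblasts. Of these, 37 had a probe set named for them alone on the expression array, out of 7842 genes named in this way, and Arsb and Ppt1 had none. Where a gene had more than 1 probe set, as 7 of the 37 did, the brightest by mean log2 signal stood for it. The genes were chosen by name and function and not by their signals, although earlier results of these arrays were known when they were chosen. FGFR3Act fibroblasts came from Fgfr3G374Rneo- mice, in which Fgfr3, a receptor for fibroblast growth factors, is labelled as always active and independent of ligand. FGFR3KO fibroblasts came from FGFR3G374Rneo+ mice, labelled as lacking a functional receptor. FGFR3WT fibroblasts came from wild-type Bl6 mice. No treatment was given, all cells were kept in fibroblast growth medium, while the sources used here give neither the ages of the mice nor the strain of the mutants.

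Lysosomal enzymes are made in the endoplasmic reticulum, tagged with mannose 6-phosphate and carried to the lysosome, where a proton pump, the V-ATPase, keeps the lumen acidic enough for them to work. Cathepsins and related proteases cut proteins, glycosidases and sulfatases take glycans apart, and lipases with their activator proteins degrade membrane lipids. Fibroblasts use this system to renew their own constituents and to digest collagen that they have taken up, and macrophages carry it in large amounts.

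There was 1 array column per genotype, whereas the series states n = 3 for each group, so no spread between cultures could be computed and no difference below carries a p-value. The values are MAS5 signal intensities, a linear brightness per probe set. A floor, the 40th percentile of each array, lay at 123 on FGFR3Act, 122 on FGFR3KO and 121 on FGFR3WT. Signals under it were raised to it before log2 differences were taken. Counts of genes at least 1.5-fold or 2-fold apart describe size only. The targeted gene could not check the labels, because the Fgfr3 signal was 2.42 in FGFR3Act, 3.76 in FGFR3KO and 1.06 in FGFR3WT cells, far under the floor in each. Of the 37 lysosomal genes, 34 were above the floor on all 3 arrays. The other 3, the galactosidase gene Gla, the tartrate-resistant phosphatase gene Acp5 and the galactosylceramidase gene Galc, were under it on all 3, and no difference is given for them.

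Macrophage transcripts set the FGFR3Act array apart from the others. Among 27 markers of macrophages and other leukocytes, 24 passed the floor on the FGFR3Act array, 4 on the FGFR3KO array and 3 on the FGFR3WT array, and Ptprc, Itgam and Aif1 were under it on all 3. The summed signal of the 27 was 40946 on FGFR3Act, 2165 on FGFR3KO and 1736 on FGFR3WT. The bacteria-digesting lysozyme gene Lyz2 had 7037 on FGFR3Act, 48.2 on FGFR3KO and 51.4 on FGFR3WT. The pore-forming protein gene Mpeg1 had 6665 on FGFR3Act, 117 on FGFR3KO and 86.1 on FGFR3WT. Fibroblast markers were present on all 3 arrays, with 16 of 17 above the floor on each. Against FGFR3WT their median was -0.47 on FGFR3Act, with 6 of 16 at least 1.5-fold lower (16.3% of all genes). On FGFR3KO their median was 0.24, and it turned to -0.08 after quantile normalisation. Of 7 endothelial markers, 0 were above the floor on any array. The part of macrophage RNA in the lysosomal differences on FGFR3Act was not tested, and in such bulk samples fewer cells of a type and less RNA per cell cannot be told apart.

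Control probe sets differed between the arrays as well. The ratio of the beta-actin probe set at the 3' end to that at the 5' end, a sign of RNA integrity, was 1.44 on FGFR3Act, 1.82 on FGFR3KO and 1.64 on FGFR3WT. The 3 probe sets for 18S ribosomal RNA (3' end, middle, 5' end) stood at 1.12, 0.67 and 0.50 times FGFR3WT on FGFR3Act and at 2.43, 1.65 and 2.44 times FGFR3WT on FGFR3KO. The Gapdh probe set at the 5' end stood at 0.55 times FGFR3WT on FGFR3Act and 0.91 times on FGFR3KO. The part of these in the lysosomal differences was not tested.

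Many lysosomal genes carry in their promoters the E-box CACGTG, which is known as the core of the element bound by TFEB and its relatives, transcription factors of lysosomal genes. It was searched on both strands, which are identical for this motif, in windows of 300 bases that run from 250 bases before to 50 after each annotated start site (RefSeq, GRCm38.p6). Windows were found for 34 of the 37 genes, and not for Asah1, Ctsb and Ctsh. In these, 11 genes (32.4%) held at least 1 copy, against 11.5% of the 6269 genes on the array with a window. By windows, 11 of 39 (28.2%) held it, against 7.15% of all 32851 windows of the same length. The longer palindrome TCACGTGA, which contains the first motif, was found in 5 of the 34 genes (14.7%), against 1.95% of the genes on the array. The windows of 4 genes from 3 classes are shown with each CACGTG in capitals, for the closeness of the copies to the start site and to each other. They are those of the protease genes Ctsd (chr7:142387778-142388077, minus strand) and Ctsa (chr2:164833523-164833822, plus strand), the membrane protein gene Lamp1 (chr8:13158911-13159210, plus strand) and the pump gene Atp6v0d1 (chr8:105566015-105566314, minus strand).
Ctsd: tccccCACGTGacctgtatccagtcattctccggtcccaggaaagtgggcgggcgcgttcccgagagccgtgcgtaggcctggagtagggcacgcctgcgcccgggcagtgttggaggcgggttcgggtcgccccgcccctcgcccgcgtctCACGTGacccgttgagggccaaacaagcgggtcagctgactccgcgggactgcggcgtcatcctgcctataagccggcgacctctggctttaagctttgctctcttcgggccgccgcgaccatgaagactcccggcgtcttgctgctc
Ctsa: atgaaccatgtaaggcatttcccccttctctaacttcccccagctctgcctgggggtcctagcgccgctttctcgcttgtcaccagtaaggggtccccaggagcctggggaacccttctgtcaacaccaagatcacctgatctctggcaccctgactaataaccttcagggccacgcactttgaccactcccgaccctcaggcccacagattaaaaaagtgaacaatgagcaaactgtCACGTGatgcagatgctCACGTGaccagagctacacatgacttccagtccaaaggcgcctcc
Lamp1: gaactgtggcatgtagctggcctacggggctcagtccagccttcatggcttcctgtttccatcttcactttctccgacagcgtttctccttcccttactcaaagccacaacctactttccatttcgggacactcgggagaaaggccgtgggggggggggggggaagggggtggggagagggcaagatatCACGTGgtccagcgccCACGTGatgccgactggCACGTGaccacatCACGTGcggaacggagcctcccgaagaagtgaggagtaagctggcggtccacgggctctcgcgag
Atp6v0d1: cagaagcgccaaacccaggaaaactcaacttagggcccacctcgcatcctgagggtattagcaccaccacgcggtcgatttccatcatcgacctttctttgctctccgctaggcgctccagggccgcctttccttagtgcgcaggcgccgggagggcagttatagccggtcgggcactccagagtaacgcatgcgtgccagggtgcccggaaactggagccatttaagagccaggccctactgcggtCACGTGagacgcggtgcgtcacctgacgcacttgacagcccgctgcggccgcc
Counted from the start site, which is position 1 with no position 0, the first bases of the 4 copies in Lamp1 lay at -61, -45, -28 and -15. Ctsa held 2 copies, at -12 and 6, Ctsd held 2, at -245 and -98, and Atp6v0d1 held 1, at -3. The other genes with a copy were Atp6v1a, Ctsl, Gaa, Gla, Glb1, Arsa and Lgmn, and in Lgmn, as in Ctsa, only 1 of the 2 windows held it. By class, copies were held by 4 of 8 proteases, 3 of 8 glycosidases and 2 of 3 pump genes. They were held by 1 of 4 membrane proteins, 1 of 4 sulfatases and phosphatases and 0 of 7 genes in the lipid class, which includes Grn. A match in these windows is a description of the letters and not of binding.

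**Figure D1:**
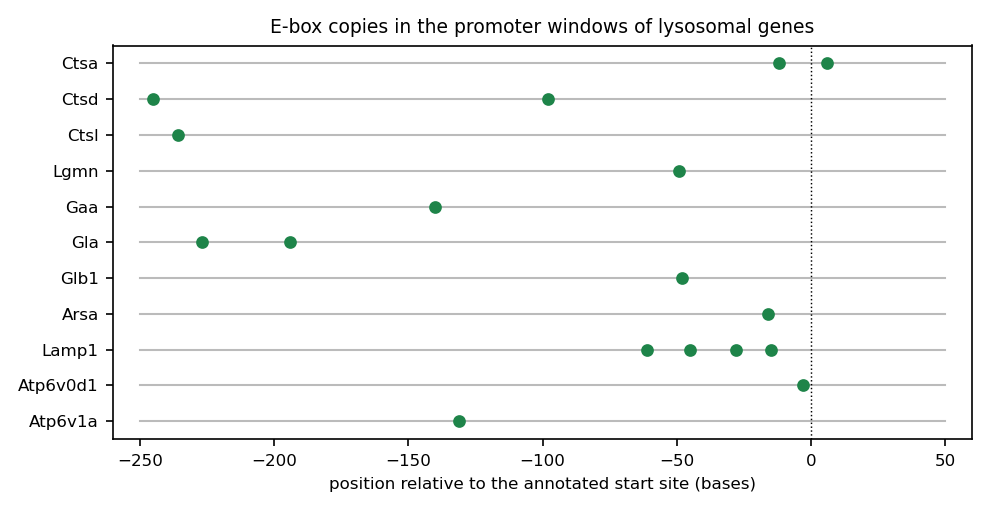
Positions of the CACGTG motif (green points, first base) in the promoter windows of the 11 lysosomal genes that hold it, from 250 bases before to 50 after the annotated start site (grey lines, dotted line at the start site, x axis in bases). Lamp1 has 4 copies between -61 and -15, while the copy of Ctsl lies at -236.

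On the FGFR3Act array the 10 chosen lysosomal proteases stood above FGFR3WT more than the other chosen classes by their median. On the FGFR3KO array the 3 chosen pump genes stood below FGFR3WT. Genes for lipid enzymes and lipid-handling proteins, with Grn counted among them, were divided there, with 4 of 7 below FGFR3WT and 3 above it. Of the 34 genes compared, 10 exceeded FGFR3WT by at least 1.5-fold on the FGFR3Act array, against 11.4% of all 5244 genes compared. In the other direction 3 were at least 1.5-fold lower, against 16.3% of all genes. The median log2 difference of the 34 was 0.36, against -0.07 over all genes. FGFR3KO set against FGFR3WT gave 1 gene at least 1.5-fold higher (10.3% of all 5184 genes compared) and 7 at least 1.5-fold lower (13.7% of all genes). The median there was -0.25, against -0.02 over all genes, and 24 of the 34 were lower, beside 2668 of all 5184 genes. On FGFR3Act 24 of the 34 were higher than on FGFR3WT, beside 2321 of all 5244 genes. Direction counts by class below stand beside these counts over all genes. Both comparisons share the FGFR3WT array. At 2-fold, 4 were higher and 1 lower on FGFR3Act (4.14% and 4.79% of all genes), and 0 higher and 2 lower on FGFR3KO (1.93% and 3.61%). The 7 lower on FGFR3KO are 20.6% of the 34.

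Ordered by signal, 22 of the 34 genes (64.7%) were highest on FGFR3Act, against 32.6% of the 5382 genes above the floor on at least one array. The FGFR3KO array was the lowest for 19 (55.9%), against 35.2% of those genes.

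**Figure D2:**
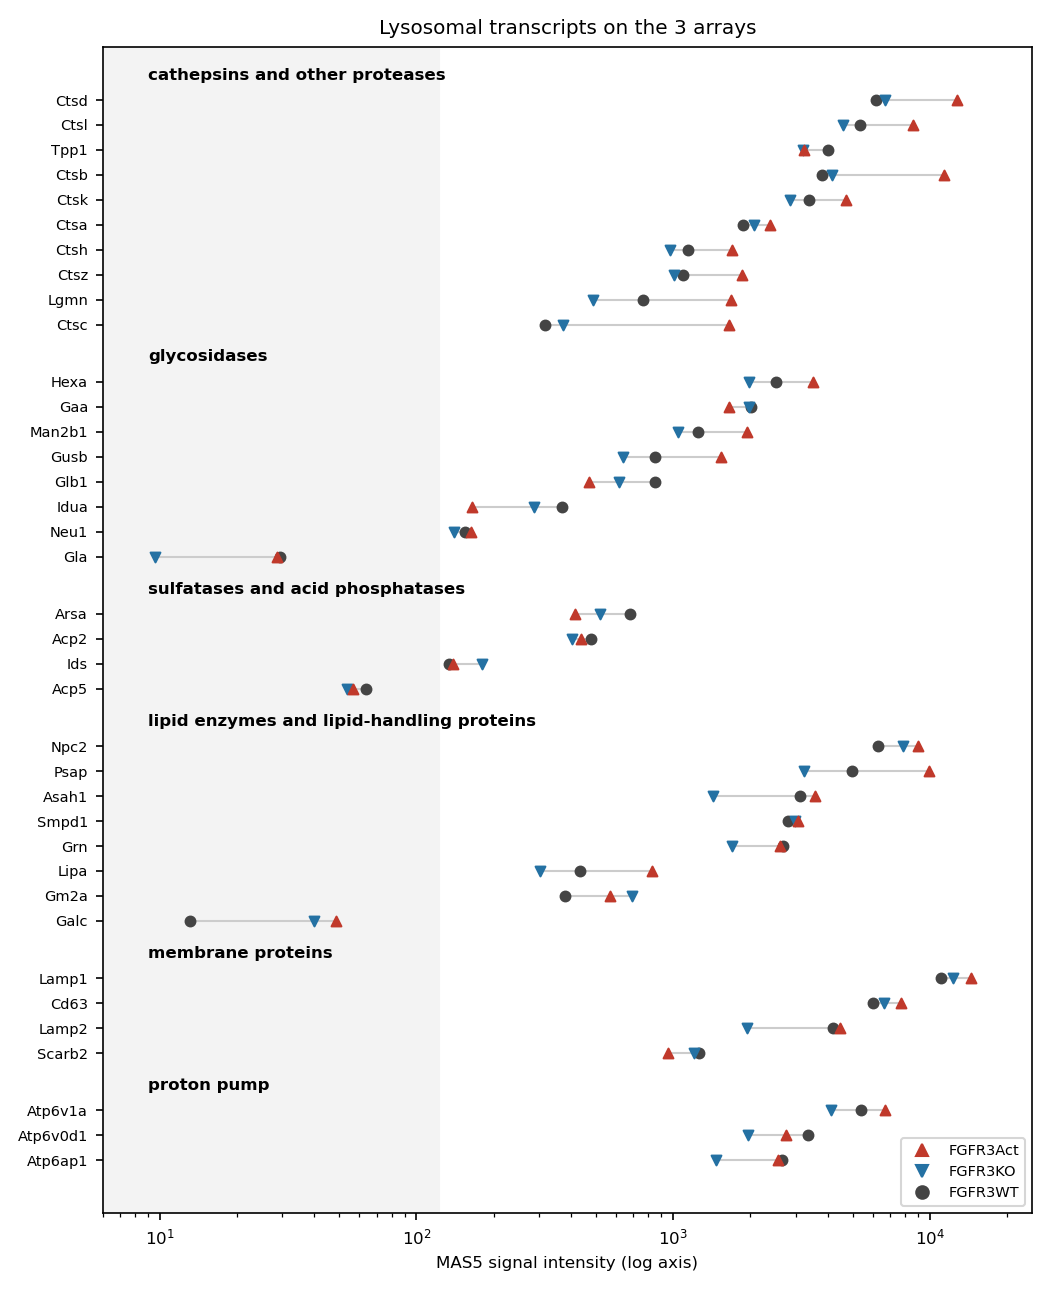
MAS5 signal intensity (log x axis) of the 37 lysosomal genes on the FGFR3Act (red), FGFR3KO (blue) and FGFR3WT (grey) arrays, 1 point per array, grouped by class, with grey lines spanning each gene's 3 values and the shaded area under the highest of the 3 floors. Most proteases have the red point furthest right, and Gla, Acp5 and Galc lie in the shaded area.

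Of the 10 protease genes, 9 were higher on FGFR3Act than on FGFR3WT, 6 of them by at least 1.5-fold, and the class median was 0.73. The share of all genes that much higher was 11.4%, and Ctsl, one of the 6, came to 0.57 after quantile normalisation, under 1.5-fold. The summed macrophage markers given above move the same way, and their part in the protease values was not tested. Cathepsin C (Ctsc), a dipeptidase that activates granule proteases of leukocytes, had 1652 on FGFR3Act, 371 on FGFR3KO and 318 on FGFR3WT. Its FGFR3Act signal was 5.20-fold that of FGFR3WT, and its second probe set was under the floor on every array. With the mean over probe sets, which takes in that floored probe set and so shrinks the difference by itself, the log2 difference of Ctsc was 1.20. Cathepsin B (Ctsb), a cysteine protease of most cell types, had 11339.9 on FGFR3Act, 4175 on FGFR3KO and 3804 on FGFR3WT. Its FGFR3Act signal was 2.98-fold that of FGFR3WT, and its 2 dimmer probe sets were 5.82-fold and 5.08-fold higher. On FGFR3KO those dimmer probe sets were at -0.29 and -0.68 against FGFR3WT, where the brightest was at 0.13. Legumain (Lgmn), the asparaginyl endopeptidase that trims cathepsins to their mature forms, had 1684 on FGFR3Act, 488 on FGFR3KO and 760.2 on FGFR3WT. It was 2.22-fold higher on FGFR3Act and 1.56-fold lower on FGFR3KO than on FGFR3WT. The FGFR3KO difference came under 1.5-fold after quantile normalisation (-0.56) and cyclic loess (-0.52). The aspartic protease cathepsin D (Ctsd), whose promoter is printed above, had 12727 on FGFR3Act, 6661 on FGFR3KO and 6149 on FGFR3WT, a 2.07-fold difference between FGFR3Act and FGFR3WT.

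The remaining proteases differed less. Cathepsin Z (Ctsz), a carboxypeptidase, had 1855 on FGFR3Act, 1004 on FGFR3KO and 1093 on FGFR3WT, 1.70-fold higher on FGFR3Act. Cathepsin L (Ctsl), an endopeptidase, had 8619 on FGFR3Act, 4592 on FGFR3KO and 5334 on FGFR3WT, 1.62-fold higher on FGFR3Act. Another 3 were higher on FGFR3Act by less than 1.5-fold. The aminopeptidase cathepsin H (Ctsh) had 1694 on FGFR3Act, 973 on FGFR3KO and 1141 on FGFR3WT, 1.48-fold higher on FGFR3Act. The collagen-degrading cathepsin K (Ctsk) had 4702 on FGFR3Act, 2856.5 on FGFR3KO and 3383 on FGFR3WT, 1.39-fold higher. Cathepsin A (Ctsa), a carboxypeptidase that shields other lysosomal enzymes from degradation, had 2385 on FGFR3Act, 2071 on FGFR3KO and 1867 on FGFR3WT, 1.28-fold higher. Tripeptidyl peptidase 1 (Tpp1) was the exception, with 3232 on FGFR3Act, 3216 on FGFR3KO and 4011 on FGFR3WT. On FGFR3KO the proteases lay near FGFR3WT, with a median of -0.17, and Lgmn was the only one of the 10 at least 1.5-fold apart by its brightest probe set.

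**Figure D3:**
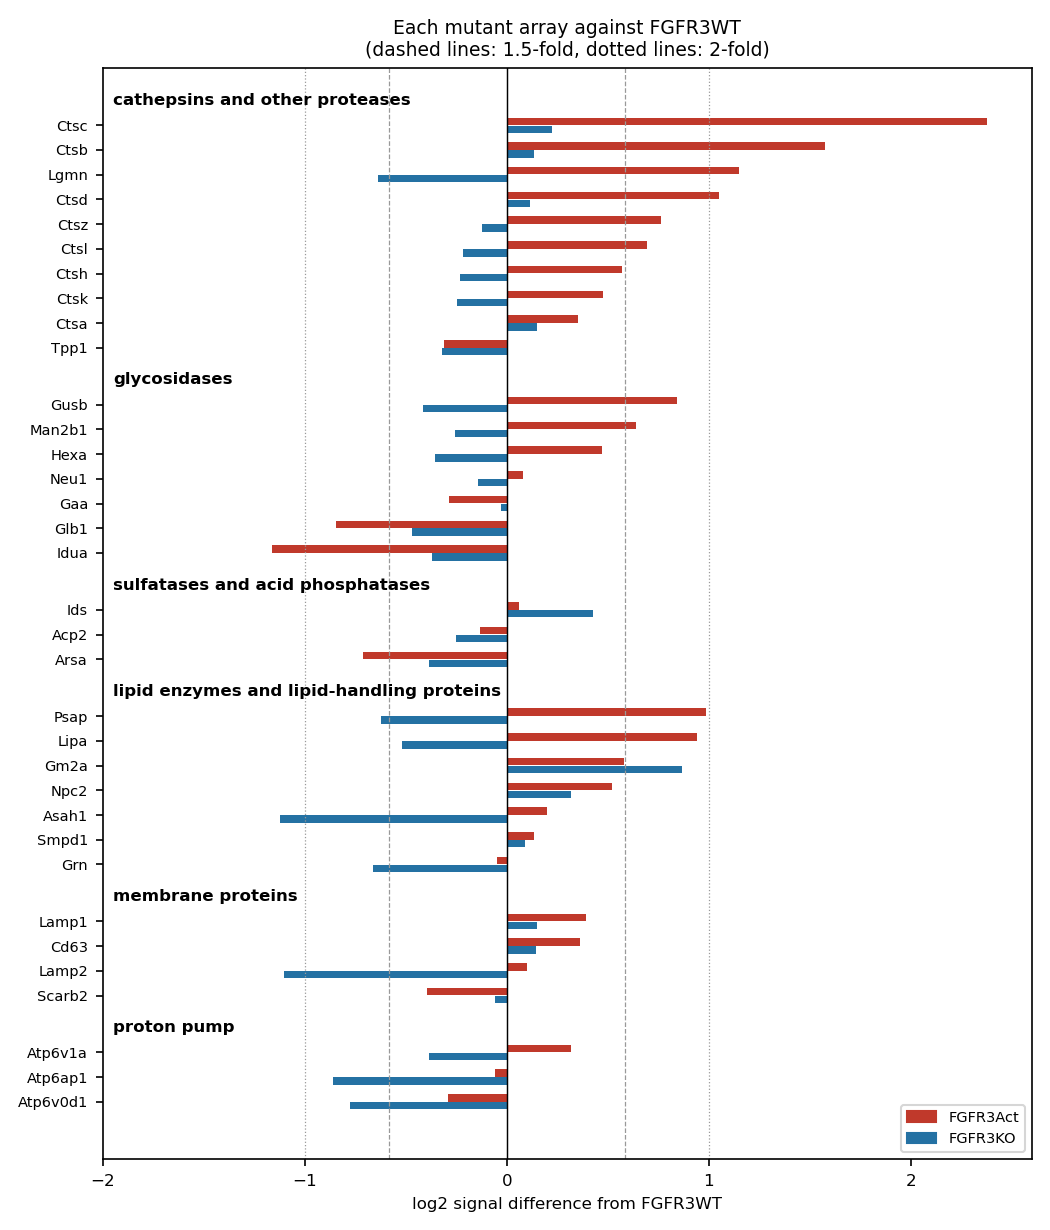
log2 signal difference from FGFR3WT (x axis) of the 34 lysosomal genes above the floor, FGFR3Act (red bars) and FGFR3KO (blue bars), by class, with dashed lines at 1.5-fold and dotted lines at 2-fold. Ctsc reaches 2.38 on FGFR3Act, and Asah1 and Lamp2 reach -1.12 and -1.10 on FGFR3KO.

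Glycosidases were split on FGFR3Act. The 7 compared had a median of 0.08, and 2 lay above FGFR3WT and 2 below it by 1.5-fold or more (11.4% and 16.3% of all genes). Beta-glucuronidase (Gusb), which cleaves glucuronic acid from glycosaminoglycans, had 1530 on FGFR3Act, 639.5 on FGFR3KO and 851.6 on FGFR3WT, 1.80-fold higher on FGFR3Act. The mannosidase gene Man2b1 had 1941 on FGFR3Act, 1042 on FGFR3KO and 1246 on FGFR3WT, 1.56-fold higher on FGFR3Act. The iduronidase gene Idua had 165 on FGFR3Act, 286 on FGFR3KO and 369.9 on FGFR3WT, 2.24-fold lower on FGFR3Act. Its product takes part in the breakdown of dermatan and heparan sulfate. Beta-galactosidase (Glb1) had 472 on FGFR3Act, 613 on FGFR3KO and 848 on FGFR3WT, 1.80-fold lower on FGFR3Act, and its second probe set was under the floor on FGFR3Act and FGFR3WT and at 0.27 for FGFR3KO against FGFR3WT. So 2 enzymes of glycosaminoglycan breakdown, Gusb and Idua, lay on opposite sides of FGFR3WT. The difference of Idua shrank to -0.14 with a floor at the 60th percentile, which lay above its FGFR3Act signal.

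The other glycosidases lay within 1.5-fold of FGFR3WT on FGFR3Act. Hexa, the alpha chain of the hexosaminidase that cleaves gangliosides, had 3494 on FGFR3Act, 1969 on FGFR3KO and 2517 on FGFR3WT, 1.39-fold higher on FGFR3Act. The sialidase gene Neu1 had 163 on FGFR3Act, 139.7 on FGFR3KO and 154 on FGFR3WT, close above the floor. Gaa, for the glucosidase that degrades glycogen, had 1648 on FGFR3Act, 1971 on FGFR3KO and 2008 on FGFR3WT, 1.22-fold lower on FGFR3Act. On FGFR3KO all 7 had log2 differences below 0, between -0.47 for Glb1 and -0.03 for Gaa, with a median of -0.35. Of the 7, 0 were at least 1.5-fold apart (10.3% of all genes higher and 13.7% lower). Gaa turned to 0.06 after quantile normalisation.

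Among sulfatases and acid phosphatases, the sulfatide sulfatase gene Arsa had 415 on FGFR3Act, 519.8 on FGFR3KO and 678 on FGFR3WT, 1.63-fold lower on FGFR3Act than on FGFR3WT. The iduronate sulfatase gene Ids had 139 on FGFR3Act, 179.6 on FGFR3KO and 134 on FGFR3WT, close above the floor, and its 2 other probe sets were under it on every array. The acid phosphatase gene Acp2 had 438 on FGFR3Act, 403 on FGFR3KO and 479.9 on FGFR3WT. None of these 3 was at least 1.5-fold from FGFR3WT on FGFR3KO.

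Genes for lipid enzymes and lipid-handling proteins stood above FGFR3WT on FGFR3Act in 6 of 7, with a median of 0.52. Of these, 2 were at least 1.5-fold higher (11.4% of all genes). The FGFR3Act median was 0.35 after quantile normalisation, 0.40 after cyclic loess and 0.36 with no filter. On FGFR3KO 4 of 7 stood below FGFR3WT, with a median of -0.52, and 3 by at least 1.5-fold (13.7% of all genes). The progranulin gene Grn, at -0.66 on FGFR3KO, was counted in this class and among these 3, although its product is not a lipid enzyme. With 4 genes lower and 3 higher the FGFR3KO median rests on few genes, and it was -0.21 with the floor at the 20th percentile, -0.29 at the 60th, -0.25 with no filter and -0.30 with the mean over probe sets. Prosaposin (Psap), the precursor of the 4 saposins that present sphingolipids to their enzymes, had 9901 on FGFR3Act, 3248 on FGFR3KO and 4997 on FGFR3WT. It was 1.98-fold higher on FGFR3Act and 1.54-fold lower on FGFR3KO than on FGFR3WT, and its second probe set was under the floor on every array. With the mean over probe sets Psap came under 1.5-fold on both, at 0.50 on FGFR3Act and -0.30 on FGFR3KO. That mean takes in the second probe set at the floor, which by itself pulls the difference towards none. The acid lipase gene Lipa, which frees cholesterol and fatty acids from lipoproteins, had 828 on FGFR3Act, 302 on FGFR3KO and 432 on FGFR3WT, 1.92-fold higher on FGFR3Act and 1.43-fold lower on FGFR3KO. Like Lgmn, these genes lay on opposite sides of FGFR3WT on the mutant arrays. This order by signal, highest on FGFR3Act and lowest on FGFR3KO, was that of 14 of the 37 genes.

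Acid ceramidase (Asah1), which splits ceramide into sphingosine and a fatty acid, had 3578 on FGFR3Act, 1432 on FGFR3KO and 3114 on FGFR3WT. It was 2.17-fold lower on FGFR3KO than on FGFR3WT and 1.15-fold higher on FGFR3Act. Progranulin (Grn), a secreted and lysosomal glycoprotein, had 2601 on FGFR3Act, 1697 on FGFR3KO and 2690.2 on FGFR3WT, 1.58-fold lower on FGFR3KO. The ganglioside activator gene Gm2a was the only lysosomal gene at least 1.5-fold higher on FGFR3KO, with 568.5 on FGFR3Act, 693 on FGFR3KO and 380.4 on FGFR3WT, a 1.82-fold difference between FGFR3KO and FGFR3WT. Npc2 and Smpd1 lay near FGFR3WT on each mutant array, within 1.5-fold. The cholesterol carrier gene Npc2 had 9029 on FGFR3Act, 7842 on FGFR3KO and 6287 on FGFR3WT. The sphingomyelinase gene Smpd1 had 3078 on FGFR3Act, 2993 on FGFR3KO and 2807 on FGFR3WT. Npc2 turned from 0.32 to -0.02 for FGFR3KO against FGFR3WT after quantile normalisation.

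The genes of the abundant lysosomal membrane proteins were close to FGFR3WT, with 1 exception. Lamp1, the heavily glycosylated lining protein whose promoter holds 4 E-boxes, had 14528 on FGFR3Act, 12261 on FGFR3KO and 11055 on FGFR3WT. The tetraspanin gene Cd63 had 7711 on FGFR3Act, 6629 on FGFR3KO and 5995 on FGFR3WT. Scarb2, the receptor that carries glucocerebrosidase to the lysosome, had 955 on FGFR3Act, 1206 on FGFR3KO and 1257 on FGFR3WT. Lamp1, Cd63 and Scarb2 changed sign on FGFR3KO under at least one other scaling, with Lamp1 at 0.15 as given and -0.45 after quantile normalisation, so no direction is stated for them there.

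The exception was Lamp2, a lining protein needed for the fusion of autophagosomes and for uptake of single proteins by lysosomes. It had 4486 on FGFR3Act, 1946 on FGFR3KO and 4185 on FGFR3WT, 2.15-fold lower on FGFR3KO than on FGFR3WT. Its second probe set did not show this, with 1410.4 on FGFR3Act, 1500.2 on FGFR3KO and 1708 on FGFR3WT, a 1.14-fold difference. The Lamp2 value on FGFR3KO is therefore uncertain between its probe sets.

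The 3 pump genes chosen were lower on FGFR3KO than on FGFR3WT, with a median of -0.78. The accessory subunit gene Atp6ap1 had 2551 on FGFR3Act, 1464 on FGFR3KO and 2657 on FGFR3WT, 1.82-fold lower on FGFR3KO. Atp6v0d1, a subunit that joins the membrane ring to the stalk, had 2747 on FGFR3Act, 1957 on FGFR3KO and 3356 on FGFR3WT, 1.71-fold lower on FGFR3KO. Atp6v1a, the subunit that burns ATP, had 6692 on FGFR3Act, 4116 on FGFR3KO and 5372 on FGFR3WT, 1.31-fold lower on FGFR3KO, and its second probe set was 1.03-fold lower. On FGFR3Act these 3 lay within 1.5-fold of FGFR3WT, except that the second probe set of Atp6v1a was 1.79-fold higher.

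A separate list of 12 other V-ATPase subunits and accessory proteins lay on the same side. On FGFR3KO 11 of 12 were lower than on FGFR3WT, 4 of them by at least 1.5-fold, with a median of -0.51. With the mean over probe sets the median was -0.26 and 3 were that much lower. On FGFR3Act 11 of the 12 were higher than on FGFR3WT, with a median of 0.23. Of these, 3 were at least 1.5-fold higher (11.4% of all genes). The accessory gene Atp6ap2, also known as the prorenin receptor, had 1390.1 on FGFR3Act, 303 on FGFR3KO and 829 on FGFR3WT. It was 1.68-fold higher on FGFR3Act and 2.73-fold lower on FGFR3KO than on FGFR3WT. Atp6v1h, a regulatory subunit, had 2280.5 on FGFR3Act, 828 on FGFR3KO and 1560.1 on FGFR3WT, 1.88-fold lower on FGFR3KO. The membrane subunit gene Atp6v0a2 had 1205 on FGFR3Act, 664 on FGFR3KO and 1096 on FGFR3WT, 1.65-fold lower on FGFR3KO. The stalk subunit gene Atp6v1c1 had 2495 on FGFR3Act, 718 on FGFR3KO and 1101 on FGFR3WT, 2.27-fold higher on FGFR3Act and 1.53-fold lower on FGFR3KO. Like Atp6ap2, it was at least 1.5-fold from FGFR3WT in both directions. Counting the chosen and the other pump genes together, 14 of 15 were lower on FGFR3KO than on FGFR3WT (median -0.53) and 6 of them by at least 1.5-fold (13.7% of all genes). The median was -0.26 with the mean over probe sets, and 13 of 15 were lower under each of the 3 other scalings. Between these arrays 4 macrophage markers could be compared, and the others were under the floor on both. Of the 4, 0 were at least 1.5-fold apart (10.3% of all genes higher and 13.7% lower). The part of macrophage RNA in the pump values was not tested.

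**Figure D4:**
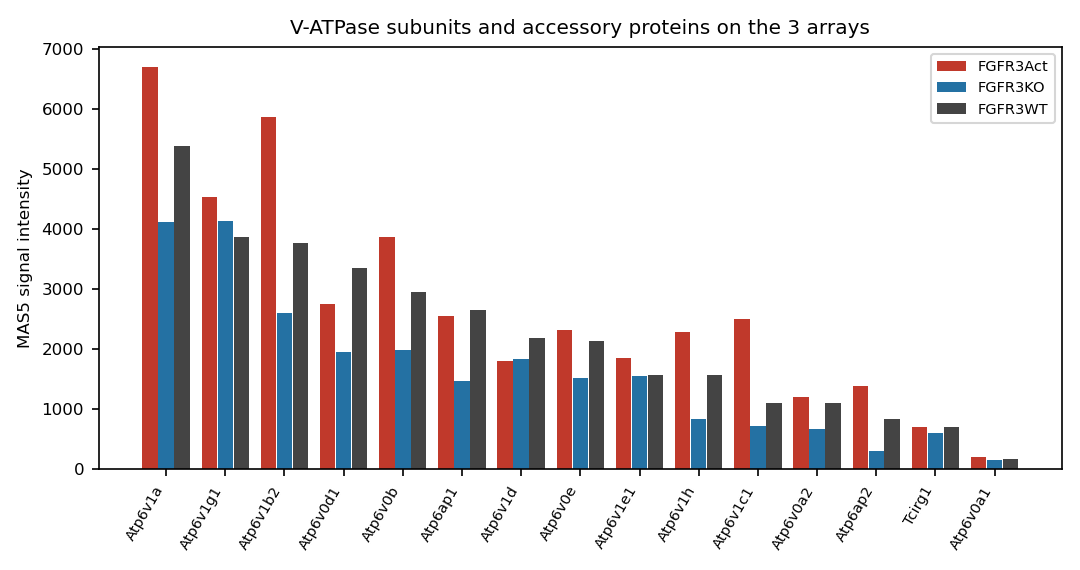
MAS5 signal intensity (linear y axis) of the 15 V-ATPase subunits and accessory proteins on the FGFR3Act (red), FGFR3KO (blue) and FGFR3WT (grey) arrays, 1 bar per array, ordered by FGFR3WT signal. The FGFR3KO bar is below the FGFR3WT bar for 14 of the 15, without further scaling, and the exception is Atp6v1g1 with 4125 on FGFR3KO against 3867 on FGFR3WT.

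The mutant arrays were also set against each other. On FGFR3Act 18 of 34 genes were at least 1.5-fold higher than on FGFR3KO (18.5% of all 5297 genes compared), and 1, Idua, was at least 1.5-fold lower (20.1% of all genes). At 2-fold, 8 were higher (8.33% of all genes) and 0 lower (7.49%). The median was 0.66, against -0.05 over all genes, and 27 of the 34 were higher, beside 2477 of all 5297 genes. The summed macrophage markers were also higher on FGFR3Act than on FGFR3KO, as given above, and their part in these values was not tested. The 8 lysosomal genes at least 2-fold higher were Ctsc (4.45-fold), Lgmn (3.45-fold), Psap (3.05-fold), Lipa (2.75-fold), Ctsb (2.72-fold), Asah1 (2.50-fold), Gusb (2.39-fold) and Lamp2 (2.31-fold). The second probe set of Lamp2 was at -0.09 in this comparison, and the mean over its probe sets at 0.56, under 1.5-fold. All 10 proteases were higher on FGFR3Act than on FGFR3KO, Tpp1 by 0.01 on the log2 scale, where its sign turned after quantile normalisation and median centring. By their brightest probe sets, Ctsc, Ctsb, Lipa and Gusb lay within 1.5-fold of FGFR3WT on FGFR3KO, Asah1 and Lamp2 lay within 1.5-fold of it on FGFR3Act, and Lgmn and Psap lay further from it on each array, with the losses under other settings given above.

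Other lysosomal genes were followed in lists kept apart from the 39. Cathepsin S (Ctss), a protease of antigen-presenting cells, had 11427 on FGFR3Act, 25.7 on FGFR3KO and 31.6 on FGFR3WT, at least 94.6-fold above FGFR3WT on the FGFR3Act array. Of the 12 other lysosomal hydrolases and activators compared, 2 lay above FGFR3WT and 2 below it by 1.5-fold or more on FGFR3Act (11.4% and 16.3% of all genes), and the median was -0.24. Unlike Ctss, the protease genes Scpep1 (1.74-fold), Dpp7 (1.26-fold) and Ctsf (1.12-fold) of this list were lower on FGFR3Act than on FGFR3WT. On FGFR3KO 10 of 11 were lower than on FGFR3WT, with a median of -0.42, and 3 by at least 1.5-fold (13.7% of all genes). These were Ggh, which removes glutamates from folates (2.28-fold lower), the protease gene Ctsf (2.09-fold lower) and the fucosidase gene Fuca1 (1.86-fold lower). Among 12 other lysosomal membrane proteins and transporters, 5 exceeded FGFR3WT by at least 1.5-fold on FGFR3Act and 0 were lower by that much (11.4% and 16.3% of all genes). The 3 furthest apart, known for their expression in macrophages and above the floor on FGFR3Act alone, were Cd68 (at least 21.6-fold), Laptm5 (at least 10.8-fold) and the metal transporter gene Slc11a1 (at least 3.35-fold). Cln3, a membrane protein gene of Batten disease, was 1.80-fold higher. On FGFR3KO 0 of the 9 compared in this list were at least 1.5-fold apart (10.3% of all genes higher and 13.7% lower), and the median was 0.18.

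**Figure D5:**
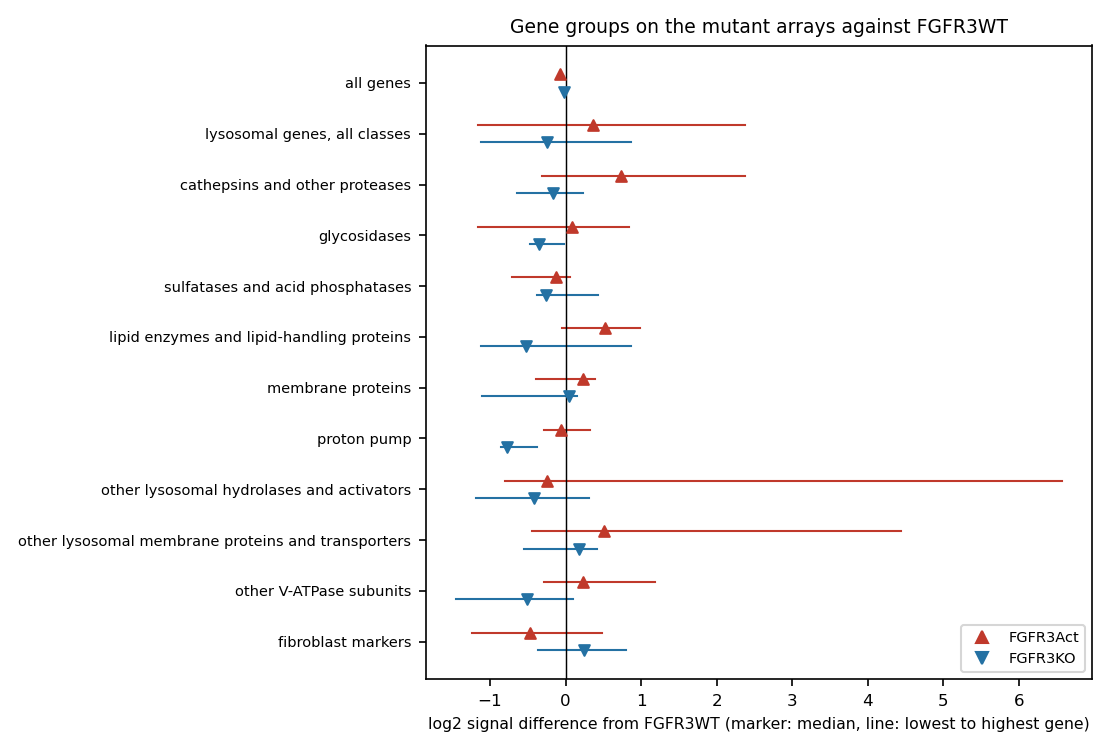
Median (markers) and range from the lowest to the highest gene (lines) of log2 signal differences from FGFR3WT (x axis) for FGFR3Act (red) and FGFR3KO (blue), by gene group, with only the median drawn for all genes. The upper FGFR3Act ends of the other hydrolases (Ctss) and the other membrane proteins (Cd68) are lower bounds, and the 3 chosen pump genes have the lowest FGFR3KO median at -0.78, while the FGFR3KO medians of membrane proteins and fibroblast markers and the FGFR3Act median of sulfatases and acid phosphatases change sign under another scaling.

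The lysosomal genes were also set out by promoter, as a description with no test. On FGFR3Act the 10 with the motif and above the floor had a median of 0.34 and the 21 without it 0.36 against FGFR3WT. On FGFR3KO the medians were -0.30 with the motif and -0.25 without it, and for FGFR3Act against FGFR3KO 0.37 and 0.62. Among the promoters printed above, on FGFR3Act Ctsd was 2.07-fold above FGFR3WT and Lamp1, with the most copies, 1.31-fold above it, while Atp6v0d1 was 1.22-fold below it. Of the factors themselves, Tfeb had 13.6 on FGFR3Act, 15.9 on FGFR3KO and 11.5 on FGFR3WT. Mitf had 69.2 on FGFR3Act, 9.31 on FGFR3KO and 52.9 on FGFR3WT. Both genes were under the floor throughout.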

How the data were processed

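RNA of cultured dermal fibroblasts was measured on Affymetrix expression arrays, 1 column per genotype, with 15 μg of total RNA as input to labelling (per the labels' protocols). The authors deposited a linear signal intensity per probe set, made with MAS5 per the submitters' processing notes. The version, the scaling target and the number of cultures behind a column were, in the sources used here, not given. The table has 9889 probe sets, 18 of them controls. Of 9376 listed in GEO's platform annotation, 9053 carry 1 symbol and 323 several; symbols were updated through gene identifiers (9041 matched, GRCm38.p6). Probe sets with several symbols were not named.

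No further scaling was applied. Signals below the 40th percentile of an array's probe sets, controls left out, were raised to that floor. Genes passing it on either array of a pair were compared, so some differences are bounds ("at least"). With 1 array per genotype no test was run, and the number of arrays limits the precision. The 39 genes and all lists were chosen with earlier results of these arrays known. Any of the 39 could be named, and from each other list up to 4 genes furthest from FGFR3WT, and the brightest markers. Tfeb, Mitf, Atp6v1g1, Scpep1, Dpp7, Ptprc, Itgam and Aif1 were named after their values were seen. The arithmetic was tested on simulated arrays. Python 3.11.15, numpy 2.4.6, pandas 2.3.3 and limma 3.58.1 (alternative scalings) were used; 10 alternatives were tried.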

Additional observations from a re-analysis of the deposited data

How the results depend on the processing

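With 1 array per genotype, spread between cultures was not measurable, and dim probe sets limit what can be said of Gla, Acp5, Galc, Ids and Idua. The alternatives were 3 other scalings (quantile, cyclic loess, median centring), a lower floor (20th percentile), a higher one (60th), an offset of 16 instead, a filter on both arrays or none, averaged probe sets, and no _s_ or _x_ probe sets. The median of the lysosomal genes, FGFR3Act against FGFR3WT, was 0.36 as reported, 0.19 after quantile normalisation and 0.25 after cyclic loess, while the count at least 1.5-fold higher ranged from 9 to 12. FGFR3Act against FGFR3KO the median was 0.66 as reported, 0.55 with the lower floor and 0.49 with no filter. The higher floor left 0 genes at least 1.5-fold lower there, in place of 1, as Idua was then under it on both arrays. The FGFR3KO against FGFR3WT median stayed between -0.27 and -0.22. Under the 10 alternatives, the log2 differences of single genes moved by more than 0.3 in 17 of 1013 values, and no gene at least 1.5-fold apart changed sign; the cause of these shifts was not tested. With the mean over probe sets, Psap against FGFR3WT was 0.50 on FGFR3Act and -0.30 on FGFR3KO, Glb1 -0.41 on FGFR3Act, Ctsb 2.15 on FGFR3Act, Ctsc 1.20 on FGFR3Act and Lamp2 -0.65 on FGFR3KO, and Lamp2 for FGFR3Act against FGFR3KO was 0.56. The means of Psap and Ctsc each take in a probe set under the floor on every array, which by itself pulls them towards no difference. Ctsl (0.57) and Lgmn on FGFR3KO (-0.56) after quantile normalisation, and Arsa (-0.56) and Lgmn on FGFR3KO (-0.52) after cyclic loess, came under 1.5-fold against FGFR3WT, as did Grn for FGFR3Act against FGFR3KO (0.52, quantile). Ctsh and Gm2a, just under 1.5-fold on FGFR3Act, passed it in 3 of 10 alternatives each. Of the other lists, the hydrolase median on FGFR3Act was -0.11 after cyclic loess, in place of -0.24, and the membrane protein median on FGFR3KO 0.03 with no filter, in place of 0.18. No paired analysis was possible because each genotype had 1 array.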

Other observations

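Autophagy delivers cytoplasm to the lysosome, and its genes lay on the same side as the pump genes on FGFR3KO. Of 20 genes of the autophagy machinery, 15 were lower on FGFR3KO than on FGFR3WT, 8 of them by at least 1.5-fold (13.7% of all genes). The list's median was -0.46, against -0.02 over all genes, and 1 gene was at least 1.5-fold higher (10.3% of all genes). A floor at the 60th percentile gave a median of -0.30 and 5 genes at least 1.5-fold lower. Atg5, part of the conjugation system that lipidates LC3, had 333 on FGFR3Act, 140.1 on FGFR3KO and 315 on FGFR3WT. It was 2.25-fold lower on FGFR3KO, where its signal was close above the floor. Its partner Atg12 had 2010.03 on FGFR3Act, 801 on FGFR3KO and 1589 on FGFR3WT, 1.98-fold lower on FGFR3KO. The initiation factor gene Becn1 had 2647 on FGFR3Act, 885 on FGFR3KO and 1879 on FGFR3WT, 2.12-fold lower on FGFR3KO. The initiating kinase gene Ulk1 was lower on both mutant arrays, 1.57-fold on FGFR3Act and 1.96-fold on FGFR3KO. On FGFR3Act 2 of the 20 were at least 1.5-fold higher than on FGFR3WT and 1 lower (11.4% and 16.3% of all genes). The median there was 0.33, and 0.13 with the floor at the 60th percentile.

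Of 20 genes that sort enzymes to the lysosome, 0 were at least 1.5-fold lower on FGFR3KO (13.7% of all genes) and 1, the retromer subunit gene Vps29, was 1.53-fold higher (10.3% of all genes that much higher). By direction, 15 of the 20 were lower on FGFR3KO than on FGFR3WT, with a median of -0.27, against -0.02 over all genes. On FGFR3Act 1 of 19 was at least 1.5-fold higher, the clathrin light chain gene Cltb (1.69-fold), and 2 were lower, the adaptor genes Gga1 (at least 1.71-fold) and Ap1m1 (1.61-fold), beside 11.4% higher and 16.3% lower of all genes. A list of MiT/TFE factors and mTORC1 regulators of the lysosome left 12 genes to compare, none of them a MiT/TFE factor, as Tfeb and Mitf were under the floor. Of these 12, 2 were at least 1.5-fold lower on FGFR3KO, the Ragulator scaffold gene Lamtor3 (1.91-fold) and the folliculin gene Flcn (1.84-fold). On FGFR3Act 1 was, the scaffold gene Lamtor1 (1.74-fold). These shares, 16.7% and 8.33%, stand beside 13.7% and 16.3% of all genes. By direction, 8 of the 12 were lower on FGFR3KO than on FGFR3WT, with a median of -0.32. Of 4 protease inhibitor genes, 1 was at least 1.5-fold higher on FGFR3KO (10.3% of all genes), cystatin C (Cst3, 1.52-fold). On FGFR3Act 0 were (11.4% of all genes). Of 5 keratinocyte markers, the junction gene Perp was above the floor on all arrays, with 1928 on FGFR3Act, 554 on FGFR3KO and 629 on FGFR3WT. The other 4 were under it on FGFR3Act and FGFR3WT. Of 8 mast cell markers 6 were under the floor on all arrays. Of 6 osteoclast markers, 2 were above the floor on FGFR3Act, Mmp9 at 213 and Nfatc1 at 137, and 0 on FGFR3KO and FGFR3WT.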
